A study of Homo sapiens with 18 samples.

Results

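The genes described here encode proteins of the mitochondrial ribosome, and they were taken as every gene whose symbol is MRPL or MRPS followed by a number and, in some cases, the letter A or B, with a mean of at least 1 CPM (counts scaled to a common library total) in either of 2 melanoma cell lines. Of 58051 genes counted, 77 had such a symbol and all 77 passed the minimum. By the higher of the means of the 2 lines, the measure of the rule, the lowest was MRPL54 at 12.2 CPM. The lowest mean in a single line was 2.77 CPM, for MRPL23 in SKMEL2, and no matching symbol lay outside the minimum. MRPS18C, a paralog of MRPS18A and MRPS18B, falls outside the symbol rule because of its letter and is described only beside them. By role, 51 members belong to the large subunit, 25 to the small subunit, and 1, MRPS36, to neither. By descent, 46 have a counterpart in bacterial ribosomes and 30 are particular to mitochondria.

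RNA was sequenced from SKMEL2 and SKMEL30, melanoma lines that both carry a variant of NRAS and a stably integrated lentiviral tet-ON vector for Myc-tagged PPP2R3B, a regulatory subunit of protein phosphatase 2A. Each line had 3 groups of 3 libraries, which were uninduced cells, cells given doxycycline for 6 h and cells given doxycycline for 18 h, as the labels give the times. The paper's own text gives a different hour for the later time. The lines were selected with puromycin, the sources used here do not say that a line is a single clone, and no group received doxycycline without the PPP2R3B vector, so the drug and the induced gene cannot be told apart. Nothing in the labels says whether the 3 libraries of a group came from separate cultures, so p-values measure the spread between libraries, which may be technical.

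The mitochondrial ribosome translates the few messages encoded by mitochondrial DNA, all of which specify subunits of the respiratory chain or ATP synthase. Its rRNAs are transcribed in the mitochondrion, while every one of its proteins is encoded in the nucleus, made in the cytosol and imported. Doxycycline, the inducer, is itself an inhibitor of bacterial-type ribosomes and is known to slow mitochondrial translation, so the transcripts of this ribosome are of interest in any doxycycline-inducible system. The first question was whether these transcripts responded to induction, and the second was how the lines differed before it.

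Totals ran from 13402645 to 22383470 counts per library, and the mean count of a member over the 18 libraries ran from 183 to 4449, with a median of 837. PPP2R3B was measured at 17.2 to 24.4 CPM in the 6 uninduced libraries and at 343 to 617 CPM in the 12 induced ones, so each library matched its label for induction. Of 8 melanocytic markers, 8 were above 100 CPM in every SKMEL30 library, and 7 were so in every SKMEL2 library, where TYRP1 stood at 3.44 to 12.1 CPM. Summed over 5 epithelial markers the libraries ran from 14.8 to 34.9 CPM in SKMEL2 and from 97.6 to 167 CPM in SKMEL30, where CDH1, which melanocytes also express, made up most of it. The leukocyte list summed to 48.3 to 73.4 CPM in SKMEL2 and 32.8 to 37.1 CPM in SKMEL30, mainly from CD68 and, in SKMEL2, LYZ, while PTPRC was at most 0.804 CPM. The fibroblast list summed to 3.46 to 6.46 CPM in SKMEL2 and 27.4 to 32.3 CPM in SKMEL30, there almost wholly from LUM, while COL1A1 was at most 0.925 CPM. The 2 endothelial markers found in the table summed to at most 3.11 CPM. The part of these markers in the differences between the lines was not tested. The keratins KRT5 and KRT14 differed between libraries of a group and reached 37.5 and 26.4 CPM in SKMEL30 6 h replicate 3, against at most 8.27 and 6.76 CPM elsewhere. In SKMEL2 6 h replicate 3, 26 members deviated by more than 0.2 on the log2 scale from the mean of the other libraries of their group, against 2 to 20 in the other SKMEL2 libraries and 0 to 2 in SKMEL30. Both libraries were left out in turn, and 0 members were called on induction without either.

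No member passed the test for a change on induction, in either line or at either time. In SKMEL2, 0 of 77 members were called by edgeR's quasi-likelihood test at a Benjamini-Hochberg adjusted p under 0.05 at 6 h, where 0.0124% of all genes were called, and 0 of 77 at 18 h, where again 0.0124% were called. In SKMEL30, 0 of 77 were called at 6 h, beside 0.206% of all genes (0.0932% higher and 0.113% lower), and 0 of 77 at 18 h, beside 0.293% (0.173% higher and 0.12% lower). With so few genes called in all, less than 1 call among 77 would be the background share in each comparison, so these counts do not set the members apart from other genes. At an unadjusted p under 0.05 in the same edgeR test there were 0 members in SKMEL2 at 6 h and 0 at 18 h, where 3.37% and 4.65% of all genes passed. There were 5 in SKMEL30 at 6 h, of which 2 were higher, beside 6.44% of all genes, and 10 at 18 h, of which 8 were higher, beside 9.14%. DESeq2 also called 0 members in each of these comparisons.

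The sizes of the differences were small. The median log2 fold change of the 77 members was 0.04 in SKMEL2 at 6 h and -0.01 at 18 h, with a median standard error of a single gene of 0.08. In SKMEL30 it was 0.00 at 6 h and 0.01 at 18 h, with a median standard error of 0.05, and the median over all genes tested was 0.00 in each comparison. The 95% interval of a log2 fold change took the normal multiple of its standard error, so it is narrower than the edgeR test implies. In SKMEL30 the interval lay within 0.5 log2 units of no change for 77 of 77 members at both times. In SKMEL2 it did so for 74 members at 6 h and 76 at 18 h. The member outside that range at 18 h was MRPL23, a protein at the exit of the peptide tunnel, with a log2 fold change of -0.52 ± 0.34 (SE) and an edgeR adjusted p of 0.987. Without SKMEL2 6 h replicate 3 the median at 6 h in SKMEL2 was 0.02.

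**Figure D1:**
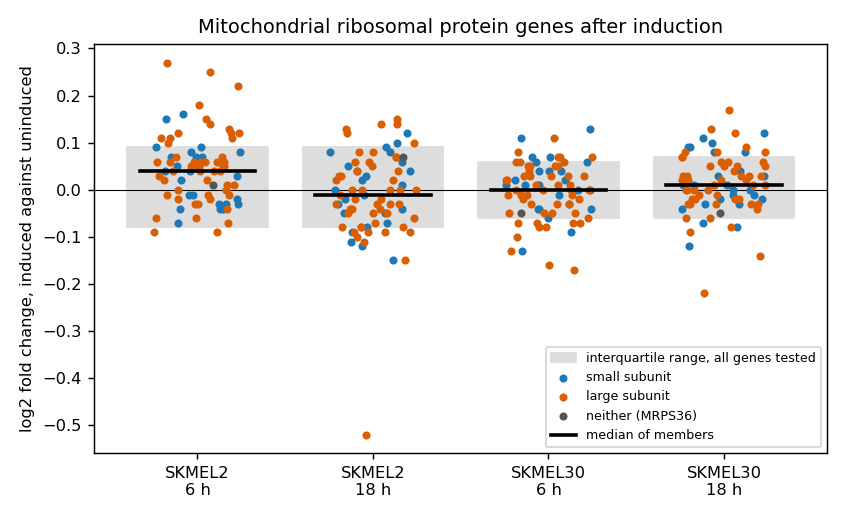
Log2 fold change of each of the 77 members (points, coloured by subunit) against uninduced cells in the 4 induction comparisons, with the members' median as a black line and the interquartile range of all genes tested as a grey band. The medians lie at 0.04, -0.01, 0.00 and 0.01 from left to right, and the lowest point is MRPL23 in SKMEL2 at 18 h, at -0.52.

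The summed level of the 77 members moved little on induction. In SKMEL2 the uninduced libraries summed to 3663 ± 111 CPM (SD, n = 3), those at 6 h to 3725 ± 37.8 CPM and those at 18 h to 3647 ± 60.7 CPM. In SKMEL30 the corresponding sums were 4391 ± 36.1, 4414 ± 61.6 and 4438 ± 34.3 CPM. Within a line the ranges of the 3 groups overlapped, whereas every SKMEL30 library lay above every SKMEL2 library.

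**Figure D2:**
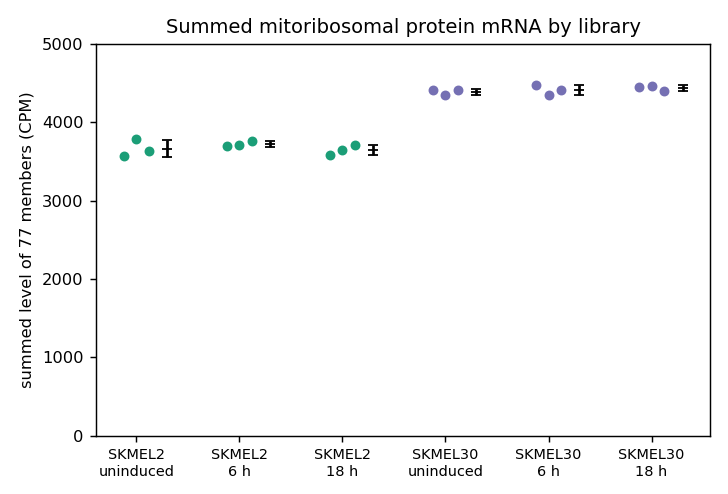
Summed level of the 77 members in CPM in each library (points, 3 per group) with the group mean and SD beside them. Group means lie between 3647 and 3725 CPM in SKMEL2 and between 4391 and 4438 CPM in SKMEL30.

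The members with the smallest p in each comparison show how the libraries varied. In SKMEL2 at 6 h these were MRPS24, a small subunit protein near the entry of the mRNA channel, and MRPL55 and MRPL52, which are particular to the mitochondrial large subunit. MRPS24 was at 26.5, 26.6 and 28.3 CPM in uninduced libraries and at 28.3, 28.6 and 34.0 CPM at 6 h, a log2 fold change of 0.16 ± 0.08 (SE, edgeR adjusted p = 0.989). MRPL55 was at 5.83, 7.26 and 6.91 CPM and then at 6.99, 7.47 and 9.77 CPM, a log2 fold change of 0.27 ± 0.15 (adjusted p = 0.989). MRPL52 was at 29.2, 29.2 and 27.9 CPM and then at 30.3, 30.0 and 34.6 CPM, a log2 fold change of 0.14 ± 0.08 (adjusted p = 0.989). In all 3 genes the highest value came from replicate 3, and without that library the log2 fold changes were 0.06, 0.11 and 0.06.

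In SKMEL2 at 18 h the 3 members were MRPS6, a small subunit protein, MRPL1, the protein of the movable stalk beside the tRNA exit site, and MRPL28 of the large subunit. MRPS6 was at 44.7, 42.8 and 39.1 CPM in uninduced libraries and at 39.8, 38.1 and 36.2 CPM at 18 h, and the groups overlapped (log2 fold change -0.15 ± 0.08, adjusted p = 0.987). MRPL1 was at 32.7, 34.3 and 37.1 CPM and then at 31.5, 31.3 and 31.2 CPM, without overlap (-0.15 ± 0.08, adjusted p = 0.987). MRPL28 was at 50.3, 50.4 and 51.4 CPM and then at 53.8, 56.1 and 57.7 CPM, without overlap (0.14 ± 0.08, adjusted p = 0.987). MRPS6 overlaps SLC5A3 on the same strand and had no whole-number value in any library, so some of its reads were shared out by estimate. MRPL28 overlaps PGAP6 on the same strand, but 0% of its values were not whole.

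In SKMEL30 at 6 h the smallest p values belonged to MRPS9, a protein of the small subunit head, MRPS26, a small subunit protein particular to mitochondria, and MRPL41, its counterpart in kind on the large subunit. MRPS9 was at 36.1, 37.5 and 36.0 CPM in uninduced libraries, 40.6, 41.1 and 38.8 CPM at 6 h, and 38.9, 37.8 and 39.3 CPM at 18 h. Its log2 fold change at 6 h was 0.13 ± 0.04 (SE, edgeR adjusted p = 0.551). MRPS26 was at 34.0, 34.4 and 34.9 CPM in uninduced libraries and at 32.6, 29.8 and 32.7 CPM at 6 h (-0.13 ± 0.05, adjusted p = 0.707). MRPL41 was at 35.9, 33.4 and 32.2 CPM and then at 32.6, 29.5 and 31.1 CPM, and the groups overlapped (-0.13 ± 0.05, adjusted p = 0.745). In SKMEL2 the same 3 genes had values of both signs and wider ranges, MRPL41 from 17.8 to 22.4 CPM in uninduced libraries and from 18.5 to 27.8 CPM at 6 h.

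In SKMEL30 at 18 h they were MRPL57 and MRPS30, large subunit proteins particular to mitochondria, and MRPS25, a small subunit protein of the same class. MRPL57 was at 26.8, 25.9 and 27.8 CPM in uninduced libraries and at 29.9, 30.4 and 29.9 CPM at 18 h, a log2 fold change of 0.17 ± 0.05 (edgeR adjusted p = 0.337). MRPS25 was at 99.3, 93.0 and 89.6 CPM and then at 101, 104 and 100 CPM (0.11 ± 0.04, adjusted p = 0.391). MRPS30 was at 103, 99.0 and 102 CPM and then at 107, 108 and 108 CPM (0.08 ± 0.03, adjusted p = 0.458). All 3 were higher at 18 h without overlap, by 1.06-fold to 1.12-fold. MRPS25 overlaps NR2C2 on the opposite strand and had no whole-number value in any library, so some of its reads were shared out by estimate.

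The times were also pooled for single members. When the 6 induced libraries of a line were set against its 3 uninduced ones, 2 members in SKMEL2 were higher without overlap, MRPL43 and MRPL52, beside 1.24% of all genes, and 0 were lower, beside 1.28%. In SKMEL30, 5 were higher without overlap, beside 2.14% of all genes, and these were MRPL32, MRPL51, MRPS9, MRPS23 and MRPS30. MRPS26 alone was lower, beside 2.24%. These 8 symbols include some named only after their values were seen. In exact two-sided permutation tests over all 84 splits, 154 tests in all, 5 members reached the smallest possible p of 0.0119, all in SKMEL30. With 154 tests and so few possible splits, members at that p could hardly pass an adjustment, so these tests are no evidence that induction left the members as they were.

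The 18 h and 6 h libraries differed for 0 of 77 members in SKMEL2, where 0% of all genes were called, and for 0 of 77 in SKMEL30, beside 0.02% of all genes. At an unadjusted p under 0.05 by edgeR these comparisons held 2 members each, beside 2.59% and 5.56% of all genes, and DESeq2 called 0. The response of SKMEL30 minus that of SKMEL2, tested as an interaction over all 18 libraries, was called for 0 members at 6 h, beside 0% of all genes, and for 0 at 18 h, beside 0.00584%. There were 2 and 4 members at an unadjusted p under 0.05, beside 4.91% and 5.16% of all genes.

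Among the genes that serve the mitochondrial ribosome, 1 was called on induction. MT-RNR2, the large subunit rRNA encoded in mitochondrial DNA, fell in SKMEL30. It was at 10918, 10984 and 11066 CPM in uninduced libraries, at 9462, 9031 and 9024 CPM at 6 h and at 8619, 8620 and 8881 CPM at 18 h, with no overlap between the groups. The log2 fold changes were -0.26 ± 0.02 (SE, edgeR adjusted p = 1.57e-05) at 6 h and -0.34 ± 0.02 (adjusted p = 7.01e-07) at 18 h. Both calls were lost, with an adjusted p of 1, when all 18 libraries shared an estimate of the spread. In SKMEL2 MT-RNR2 ranged from 5091 to 6966 CPM in uninduced libraries, from 4616 to 6507 CPM at 6 h and from 4705 to 5236 CPM at 18 h, with log2 fold changes of 0.02 ± 0.14 (adjusted p = 0.997) and -0.22 ± 0.14 (adjusted p = 0.987). The small subunit rRNA, MT-RNR1, ranged from 559 to 1016 CPM within the SKMEL30 18 h group alone and was not called in either line. The libraries were made with an mRNA kit, so these values are what the kit captured of each rRNA. The other lists held 5 mitoribosomal proteins with other symbols, 25 assembly and rRNA modification factors, 15 translation factors and 17 mitochondrial aminoacyl-tRNA synthetases. They also held 9 genes of mitochondrial DNA transcription and replication and 9 regulators. Of all these genes, 0 were called in the 4 induction comparisons.

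Before induction the lines differed at most of the 77 genes. In uninduced SKMEL30 cells, 43 members were higher than in uninduced SKMEL2 cells and 18 were lower, and 16 were not called by edgeR's quasi-likelihood test in a fit of all 18 libraries. Over all 17133 genes tested, 35.8% were higher and 40.1% were lower, 75.9% in all, so being called is the common state in this comparison. The median log2 fold change was 0.20 for the members and -0.05 for all genes. With library totals in place of TMM factors the median of all genes moved to -0.16, that of the members to 0.10, and the counts to 38 higher and 24 lower. The difference between the medians was 0.26 with TMM factors and 0.25 with library totals. It was 0.16 when genes needed 10 counts per library, 0.19 with DESeq2, 0.20 with no filter on low counts, and up to 0.34 with a library left out, the highest without SKMEL30 uninduced replicate 2. Taking all 9 libraries of each line, 39 members were higher in every SKMEL30 library, beside 29.8% of all genes, and 15 were lower, beside 32.8%.

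**Figure D3:**
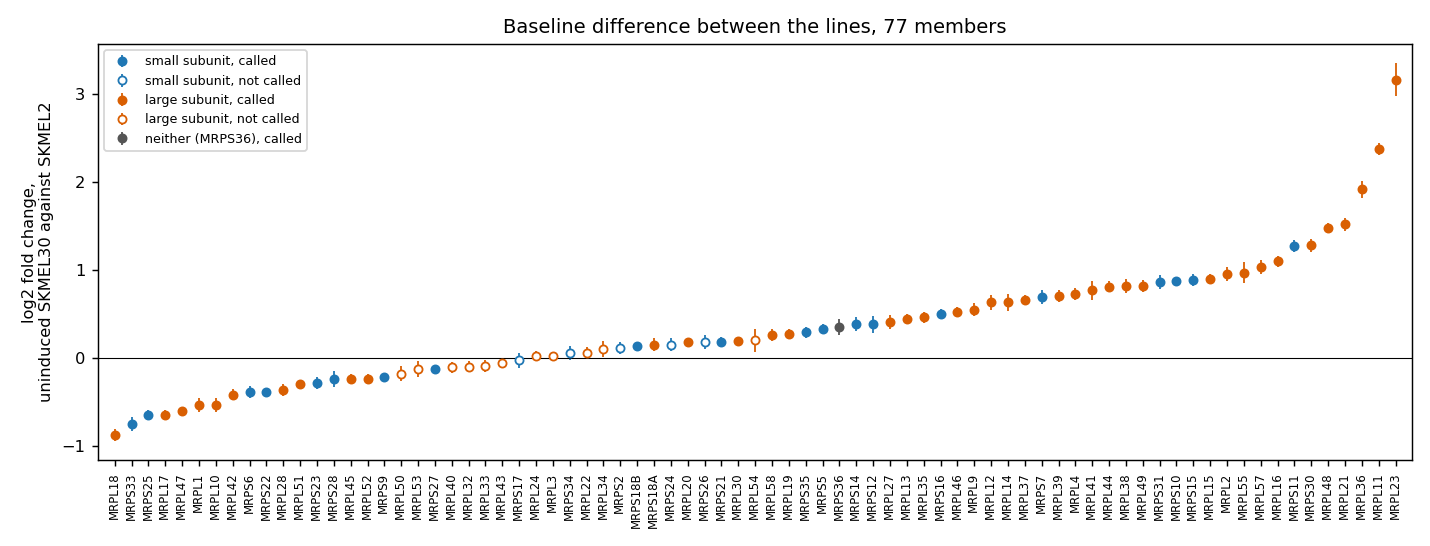
Log2 fold change of each member between uninduced SKMEL30 and uninduced SKMEL2 cells, in rising order, with bars of 1 standard error, filled points for members called at an adjusted p under 0.05 and colours for the subunits. Values run from -0.88 for MRPL18 to 3.17 for MRPL23, with 43 members called higher and 18 called lower.

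Both subunits held members of either direction, beside 35.8% higher and 40.1% lower, 75.9% in all, over all genes tested. Of the 51 large subunit members, 30 were higher and 10 lower, with a median log2 fold change of 0.27. Of the 25 small subunit members, 12 were higher and 8 lower, with a median of 0.15. Members with a bacterial counterpart were higher in 28 and lower in 9 of 46 cases, and those particular to mitochondria in 14 and 9 of 30. MRPS36, a component of the 2-oxoglutarate dehydrogenase complex despite its symbol, was among the higher ones.

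Most of the members with the largest differences were large subunit proteins, as were 51 of all 77 members. MRPL23 was at 2.10, 4.08 and 2.11 CPM in uninduced SKMEL2 and at 25.7, 24.7 and 24.3 CPM in uninduced SKMEL30, a log2 fold change of 3.17 ± 0.19 (SE, edgeR adjusted p = 6.4e-12), or 8.98-fold. Its expected counts in uninduced SKMEL2 were 36.4, 81.6 and 48.1, so its level there rested on few reads, and 61.1% of its values were not whole. MRPL11, a protein of the stalk base where elongation factors bind, was at 19.4, 21.8 and 22.1 CPM in SKMEL2 and at 113, 109 and 109 CPM in SKMEL30 (2.38 ± 0.07, adjusted p = 4.7e-17). MRPL36, a small protein of the large subunit, was at 5.36, 6.77 and 7.26 CPM and at 25.4, 25.2 and 23.2 CPM (1.92 ± 0.10, adjusted p = 4.97e-13). In each of these 3 genes every SKMEL30 library, induced or not, stood above every SKMEL2 library.

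MRPL21 went from a mean of 25.5 ± 3.62 CPM in SKMEL2 to 72.9 ± 0.989 CPM in SKMEL30, a log2 difference of 1.52 ± 0.07, and MRPL48, which sits at the central protuberance, differed by 1.48 ± 0.06. MRPS30, a large subunit protein despite its symbol, was at 41.5, 41.3 and 42.8 CPM in SKMEL2 and at 103, 99.0 and 102 CPM in SKMEL30 (1.28 ± 0.07). MRPS11, on the platform of the small subunit, differed by 1.27 ± 0.07, and MRPL16, close to the peptidyl transferase centre, by 1.10 ± 0.06. All 5 had edgeR adjusted p-values from 1.53e-14 to 3.79e-12.

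In the other direction the differences were smaller. MRPL18, which lies at the central protuberance, was at 55.8, 61.0 and 64.1 CPM in SKMEL2 and at 32.7, 32.8 and 33.1 CPM in SKMEL30, a log2 fold change of -0.88 ± 0.07 (SE, edgeR adjusted p = 6.11e-10). The small subunit proteins MRPS33 and MRPS25, both particular to mitochondria, differed by -0.75 ± 0.08 and -0.65 ± 0.06. Large subunit proteins followed, with MRPL17 at -0.65 ± 0.05, MRPL47, near the exit of the peptide tunnel, at -0.61 ± 0.05, and MRPL1 at -0.54 ± 0.08. MRPL10, which anchors the MRPL12 stalk, was at -0.54 ± 0.08, and MRPL42 was at -0.42 ± 0.06. No SKMEL30 library overlapped a SKMEL2 library in any of these 8 genes, and their adjusted p-values were at most 3.63e-06.

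At the other end, MRPL3, a core protein that reaches towards the peptidyl transferase centre, was at 239, 243 and 256 CPM in SKMEL2 and at 252, 244 and 256 CPM in SKMEL30. Its log2 fold change was 0.02 ± 0.05 (edgeR adjusted p = 0.651), with an interval from -0.07 to 0.12. MRPL24 differed by 0.02 ± 0.06, with an interval from -0.10 to 0.14, and MRPS17 by -0.03 ± 0.09, from -0.20 to 0.15. The signs of MRPL3 and MRPL24 turned with library totals, to -0.08 in both cases.

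**Figure D4:**
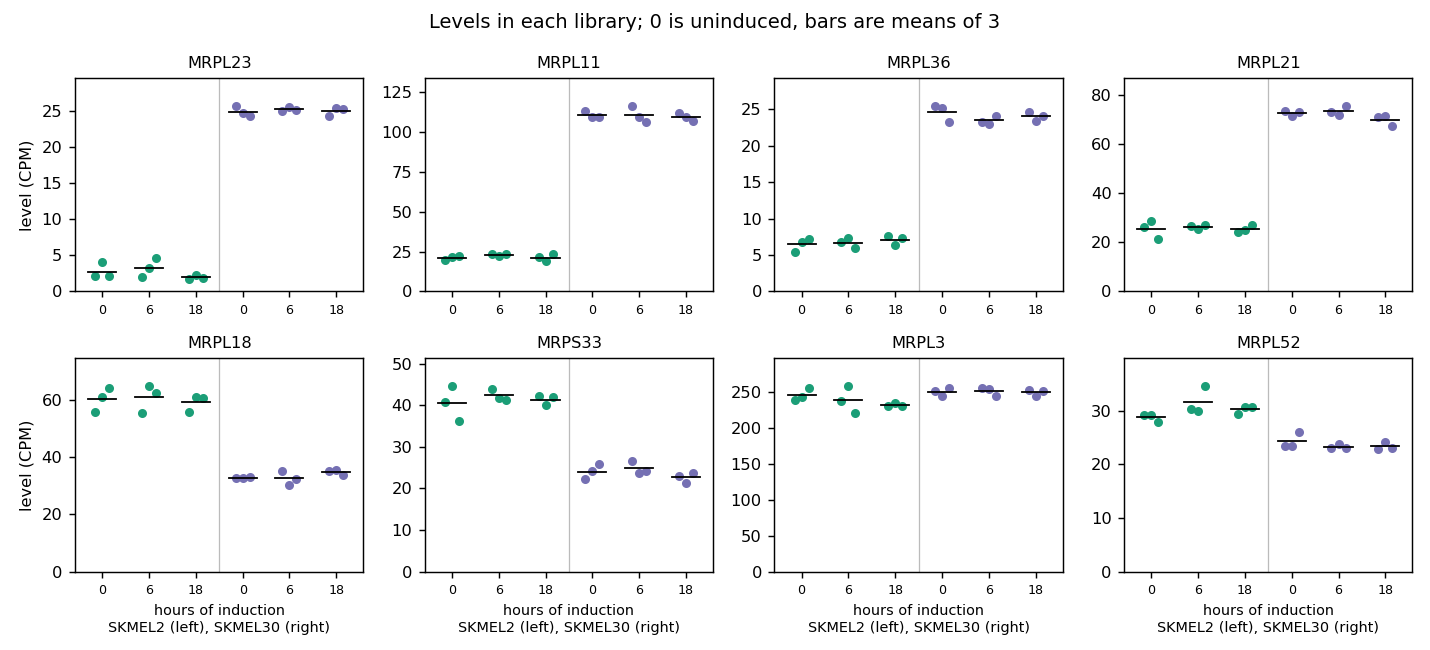
Level in CPM of 8 members in each of the 18 libraries (points) with group means as bars, SKMEL2 on the left and SKMEL30 on the right of each panel, at 0, 6 and 18 h of induction. The lines are separate in every panel but that of MRPL3, and the groups of a line lie close together, with MRPL52 highest in SKMEL2 6 h replicate 3 at 34.6 CPM.

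The MRPS18 family showed how small called differences depended on the settings. MRPS18A, a large subunit protein, was at 34.4, 36.6 and 41.8 CPM in SKMEL2 and at 42.6, 42.1 and 41.0 CPM in SKMEL30, so the lines overlapped (log2 fold change 0.15 ± 0.07, edgeR adjusted p = 0.0445). MRPS18B differed by 0.13 ± 0.05 (adjusted p = 0.0311) and MRPS18C, outside the symbol rule, by -0.21 ± 0.08 (adjusted p = 0.0164). With DESeq2, MRPS18A and MRPS18B were not called, with adjusted p-values of 0.105 and 0.069. Leaving out single libraries ended the call of each of the 3 genes, with log2 fold changes of -0.11 for MRPS18C without SKMEL30 uninduced replicate 2, 0.10 for MRPS18A and 0.11 for MRPS18B without SKMEL2 uninduced replicate 1.

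Per kilobase of exonic length, the members were expressed well above the typical gene and at very unequal levels. The median was 14.5 CPM per kb in uninduced SKMEL2 and 19.2 in uninduced SKMEL30, against 3.26 and 3.15 CPM per kb over all genes tested, and 76 and 77 of the members stood above those medians. In SKMEL2 the highest were MRPL3 at 90.7 ± 3.23 CPM per kb (SD, n = 3), MRPL12, the stalk protein that also binds the mitochondrial RNA polymerase, at 77.2 ± 4.66, and MRPL47 at 75.4 ± 3.47. The ranges of MRPL12 and MRPL47 overlapped. In SKMEL30 the order was MRPL12 at 120 ± 2.39, MRPL3 at 92.3 ± 2.21 and MRPL37 at 69.7 ± 0.229 CPM per kb, with no overlap between neighbours. The lowest in SKMEL2 were MRPL23 at 0.929 ± 0.383, MRPL46 at 3.32 ± 0.0567 and MRPL55 at 3.53 ± 0.397 CPM per kb. In SKMEL30 they were MRPS22 at 3.82 ± 0.174, MRPL42 at 3.87 ± 0.279 and MRPS33 at 4.58 ± 0.351, the first and second of which overlapped. Across the 77 genes the log2 levels per kb of the lines had a Pearson r of 0.82 and a Spearman rho of 0.85, which are descriptions over genes that share libraries and lengths. Lengths were unions of annotated exons, so a gene with long rarely used exons is given too low a value. This bears on 2 of the lowest genes named in SKMEL30. The union was 16385 bases for MRPS22 and 16368 for MRPL42, against 1009 for MRPL12. Without division by length, MRPS22 and MRPL42 had means of 62.7 and 60.7 CPM over the SKMEL30 libraries, by library totals.

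The differences of the members between the lines were set beside chromosomal position. Chromosome 11 carried 7 members, of which MRPL23, MRPL16, MRPL49, MRPL11, MRPL21 and MRPL48 were higher in SKMEL30 and MRPL17 was lower. Over all 824 genes tested on chromosome 11 the median log2 fold change was -0.18, against 1.48 for the 7 members. For each member, the median log2 fold change of the other genes within 2.5 Mb was taken wherever at least 10 were tested, a comparison added after the data were seen. Over the 75 members with such neighbours, the member and the neighbour median had a Pearson r of 0.58 and a Spearman rho of 0.60, and for 68 members off chromosome 11 the r was 0.63. The same measure over 14537 genes gave an r of 0.23 and a rho of 0.37, but those genes were not matched to the members in count level. These are descriptions over genes that share libraries and, where neighbours overlap, windows.

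Several of the named members differed by about as much as their neighbours. MRPL48 differed by 1.48 beside a neighbour median of 1.82, MRPL21 by 1.52 beside 1.89 and MRPS30 by 1.28 beside 1.21. On the lower side MRPS33 differed by -0.75 beside -0.73, MRPS25 by -0.65 beside -0.66, MRPL17 by -0.65 beside -0.91 and MRPL18 by -0.88 beside -0.64. Others did not. MRPL23 was higher by 3.17 where its 63 neighbours had a median of -0.40, and 18 of them had its sign. MRPL40, a large subunit protein chosen for mention after its value was seen, was at -0.11 in a neighbourhood whose median was 1.22. MRPL11 exceeded its neighbours by 1.08, MRPL36 by 0.75 and MRPS11 by 0.44. MRPL10 was lower, at -0.54, where its neighbours had a median of 0.13. DNA copy number was not analysed here, and its part in these values was not tested.

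**Figure D5:**
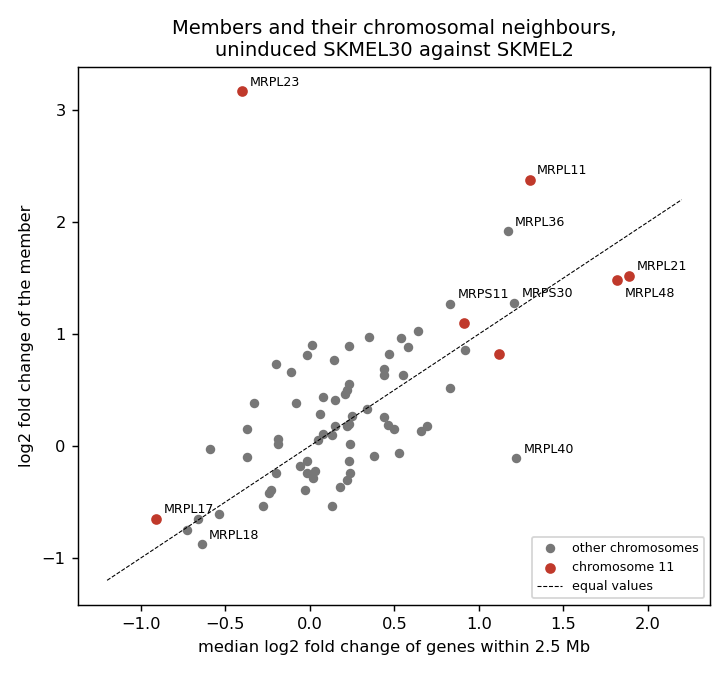
Log2 fold change of each member between uninduced SKMEL30 and SKMEL2 cells (vertical axis) against the median log2 fold change of the other tested genes within 2.5 Mb (horizontal axis), for 75 members, with chromosome 11 in red and a dashed line of equal values. Members rise with their neighbours (r of 0.58), with MRPL23 far above it and MRPL40 below.

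Of 5 motifs looked for, 2 stood in a larger share of the members' promoters than of the promoters of all genes tested, with no test made of the difference. RefSeq promoters on GRCh38.p14, 250 bases before to 50 after a start site, were found for 68 of the 77 members. That site was not always the outermost start of the gene. The windows of MRPL36 and MRPL24, for example, lie inside the gene span, and other windows may do so too. CCGGAAG, a core bound by ETS factors such as GABP, stood in 41.2% of them on either strand, against 18.7% of promoters of the genes tested and 10.7% of all promoters. AAGATGGCG, the core of the YY1 motif, stood in 19.1%, against 3.72% and 1.85%. The NRF1 palindrome stood in 1.47%, against 2.23% and 1.36%, GATTGG, bound by NFY, in 16.2%, against 19.9% and 15.7%, and the E-box CACGTG in 7.35%, against 10.1% and 7.43%. Of the 68 promoters, 24 held none of the 5 motifs. Of 14 YY1 matches, 10 began after the start site, and of 38 ETS matches 27 began within 100 bases before it. No 2 of these motifs contain each other, and a match is a run of letters, not a shown binding site. AAGATGGCG holds the start codon ATG, and whether matches after the start site lie in coding sequence was not examined.

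Promoters of 5 members with a large difference between the lines, chosen because they hold a motif, are given 5′ to 3′ on the gene's strand, with the matched motifs in capitals, to show the arrangement. MRPS30 (chr5:44808697-44808996, plus strand) holds GATTGG in 2 places before the start and AAGATGGCG after it. MRPL36 (chr5:1799788-1800087, minus strand) holds CACGTG and, reversed, the YY1 core, in a window inside the gene span, which reaches 1801434. MRPL16 (chr11:59810729-59811028, minus strand) holds GATTGG and, next to the start, the ETS core reversed. MRPL47 (chr3:179604589-179604888, minus strand) holds the ETS core, and MRPL17 (chr11:6683291-6683590, minus strand) is the single member with the NRF1 palindrome. MRPL11, MRPS11, MRPL18, MRPS25 and MRPL1, which also differed between the lines, held none of the 5 motifs.
MRPS30: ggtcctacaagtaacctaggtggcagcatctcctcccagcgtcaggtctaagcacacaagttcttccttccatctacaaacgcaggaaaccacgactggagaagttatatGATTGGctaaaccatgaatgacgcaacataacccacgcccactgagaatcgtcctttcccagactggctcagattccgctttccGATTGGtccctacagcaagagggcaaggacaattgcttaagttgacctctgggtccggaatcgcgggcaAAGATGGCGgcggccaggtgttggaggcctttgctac
MRPL36: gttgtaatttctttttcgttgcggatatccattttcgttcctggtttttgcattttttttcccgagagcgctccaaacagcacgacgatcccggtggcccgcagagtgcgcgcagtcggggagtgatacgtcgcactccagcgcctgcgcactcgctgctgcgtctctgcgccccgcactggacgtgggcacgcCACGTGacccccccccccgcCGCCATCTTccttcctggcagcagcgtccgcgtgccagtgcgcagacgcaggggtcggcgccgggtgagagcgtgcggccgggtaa
MRPL16: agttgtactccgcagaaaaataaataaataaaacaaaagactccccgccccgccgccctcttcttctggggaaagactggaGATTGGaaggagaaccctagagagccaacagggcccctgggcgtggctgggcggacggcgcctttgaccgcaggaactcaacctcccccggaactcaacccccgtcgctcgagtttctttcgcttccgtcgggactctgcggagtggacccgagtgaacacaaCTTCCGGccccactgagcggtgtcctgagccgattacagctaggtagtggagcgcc
MRPL47: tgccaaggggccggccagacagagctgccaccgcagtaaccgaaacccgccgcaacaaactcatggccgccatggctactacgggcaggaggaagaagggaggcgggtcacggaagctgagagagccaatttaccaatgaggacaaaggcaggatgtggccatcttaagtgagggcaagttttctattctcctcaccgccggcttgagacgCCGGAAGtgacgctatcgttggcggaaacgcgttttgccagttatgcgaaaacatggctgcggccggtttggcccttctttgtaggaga
MRPL17: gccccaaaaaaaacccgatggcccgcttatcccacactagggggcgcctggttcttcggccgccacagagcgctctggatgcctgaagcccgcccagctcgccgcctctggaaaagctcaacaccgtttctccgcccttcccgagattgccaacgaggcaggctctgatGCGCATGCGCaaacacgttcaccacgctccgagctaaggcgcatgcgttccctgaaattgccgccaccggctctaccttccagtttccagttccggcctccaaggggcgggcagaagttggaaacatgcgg

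Values are given for members with and without the ETS and YY1 motifs, with no test. In the 4 induction comparisons the median log2 fold change ran from -0.00 to 0.06 in members with the ETS motif and from -0.03 to 0.02 in those without, and from -0.00 to 0.04 with the YY1 motif and from -0.02 to 0.04 without it, with 0 members called. Between the lines the medians were 0.16 in the 28 members with the ETS motif and 0.31 in the 40 without, and 0.15 in the 13 with the YY1 motif and 0.19 in the 55 without.

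The genes around the mitochondrial ribosome also differed between the lines at baseline, without a single direction, in a comparison in which 75.9% of all genes were called. Of the 5 mitoribosomal proteins with other symbols, 4 were higher in SKMEL30 and 0 were lower, among them AURKAIP1 (log2 fold change 0.64 ± 0.09) and DAP3 (0.23 ± 0.04), a GTP-binding protein of the small subunit. Of 25 assembly and rRNA modification factors, 9 were higher and 12 lower, with FASTKD2 at 0.79 ± 0.06, the rRNA methyltransferase MRM3 at 0.88 ± 0.10 and TFB1M, which dimethylates the small subunit rRNA, at -0.94 ± 0.08. Of 15 translation factors, 10 were higher and 4 lower, with LRPPRC, which stabilises mitochondrial mRNAs, at 0.79 ± 0.05 and the elongation factor TUFM at -0.67 ± 0.06. Of 17 mitochondrial aminoacyl-tRNA synthetases, 9 were higher and 4 lower, and CARS2 differed most among those named, by 1.69 ± 0.06. All of these named genes had edgeR adjusted p-values of at most 4.08e-05.

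Genes of mitochondrial DNA transcription and replication were higher in 4 and lower in 4 of 9 cases. Among them were the polymerase POLG at 0.95 ± 0.09 and SSBP1, the single-strand binding protein, at -0.77 ± 0.05. Of 9 regulators of nuclear genes for mitochondria, 7 were higher and 1 lower. Over all genes tested 35.8% were higher and 40.1% lower, 75.9% in all, so being called does not set either list apart. PPARGC1A, the coactivator PGC-1alpha, was at 2.33, 1.94 and 2.86 CPM in uninduced SKMEL2 and at 33.5, 34.4 and 37.9 CPM in uninduced SKMEL30, a log2 fold change of 3.88 ± 0.17 (edgeR adjusted p = 7.83e-14). ESRRA, the nuclear receptor it works with, differed by 1.90 ± 0.11 (adjusted p = 8.46e-12), MYC by 0.73 ± 0.09 (adjusted p = 2.77e-07) and NRF1 by 0.36 ± 0.09 (adjusted p = 0.000854).

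Cytosolic ribosomal proteins were higher in 40 and lower in 19 of 86 cases, with a median of 0.11, and respiratory chain subunits were higher in 51 and lower in 7 of 79, with a median of 0.33, beside 35.8% higher and 40.1% lower over all genes. The members, with a median of 0.20, lay between them, and no test of these differences was made. The mitochondrial rRNAs went in opposite directions, MT-RNR2 at 0.94 ± 0.11 (edgeR adjusted p = 1.59e-07) and MT-RNR1 at -0.97 ± 0.20 (adjusted p = 0.000164).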

How the data were processed

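RNA of 18 libraries was made with an mRNA kit and sequenced as read pairs. Per the labels' processing notes, the submitters used Trimmomatic 0.36, cutadapt 1.5, STAR 2.2.2a, SAMtools 1.8 and RSEM 1.3.0 on GRCh38. Other versions of cutadapt and STAR are named in the paper's methods. The strand setting of the counting is not given in the sources used here. The values deposited by the authors are expected counts per gene, not scaled for library size. Of the members' values, 31.5% were not whole numbers, since RSEM shares reads between genes. All columns were matched to a sample.

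Expected counts were rounded in R 4.3.3 and tested with edgeR 4.0.16 (filterByExpr, TMM factors, glmQLFit, glmQLFTest), in a fit of 9 libraries per line for induction (16120 genes in SKMEL2, 15026 in SKMEL30) and of all 18 (17133 genes) for the line comparisons. P-values were adjusted by Benjamini-Hochberg over all genes tested, and a gene was called at an adjusted p under 0.05. The standard error was the log2 fold change divided by the square root of F, and 95% intervals took the normal multiple of it. Common biological coefficients of variation were 8.36% in SKMEL2 and 4.11% in SKMEL30. Levels are CPM with TMM factors of the 18-library fit. Gene symbols were matched for 95.8% of genes. Exon lengths came from a GENCODE annotation of another build, for lengths only, and positions from RefSeq GRCh38.p14. The fit was tested on simulated data.

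The members, lists and tests were chosen with earlier results of these data known. Named were the 3 members with the smallest p in each induction comparison, the 8 with the largest called change in each direction and the 3 with the smallest change at baseline, the 3 highest and lowest per kb, the MRPS18 family, and up to 5 called genes per pathway list, of which a selection is printed. Alternatives were RLE, upper quartile and no factors, other count filters, a replicate block, DESeq2, other sets of libraries in the fit, each library left out in turn and neighbour windows of 1 and 5 Mb. Numbered replicates were not treated as pairs in the main fits, as the labels do not say that equal numbers mark a shared culture. Same-numbered deviations correlated at -0.13 to 0.17 between SKMEL2 groups, above 0.1 in 3 of 9 pairs. For SKMEL30 they correlated at -0.02 to 0.12, above 0.1 in 1 of 9 pairs. No member had a count of 0 in any library.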

Additional observations from a re-analysis of the deposited data

How the results depend on the processing

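The call of 0 members on induction, between times and between the lines' responses held in all 128 fits, alternatives and fits with a library left out included, and the smallest adjusted p of a member in any of them was 0.257. At baseline the counts of higher and lower members stayed within 1.5 times those reported. The members' median at baseline moved from 0.20 to 0.10 with library totals, to 0.10 with upper quartile factors and to 0.15 when genes needed 10 counts per library, and ran from 0.20 to 0.29 with single libraries left out, the highest without SKMEL30 uninduced replicate 2. Of called members, 70.5% were higher with TMM factors and 61.3% with library totals. The median of the 6 h response difference ran from -0.07 to 0.00 with single libraries left out. MRPL24 turned to -0.08 with library totals, -0.08 with upper quartile factors, -0.03 when genes needed 10 counts per library, and ran from -0.05 to 0.06 with single libraries left out. MRPL3 turned to -0.08, -0.07 and -0.03 under the same 3 settings, and was called at 0.07 over all 3 groups of each line. MRPS17 ran from -0.10 to 0.14 with single libraries left out, positive without SKMEL2 uninduced replicate 2. The causes were not tested. The replicate block gave 43 higher and 18 lower members at baseline, with a median of 0.20, and 0 called on induction. These totals equal those of the main fits, and equal totals at baseline do not show that the same members were called. Neighbour windows of 1 and 5 Mb gave r values of 0.49 and 0.53.

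Small changes limit what can be seen: a member's standard error had a median of 0.08 in SKMEL2 and 0.05 in SKMEL30, so differences near 0.1 on the log2 scale were not detectable. Overlaps of members with other genes were taken from whole gene spans, and whether exons overlap was not examined. Where exons on opposite strands do overlap, reads there cannot be assigned with certainty without a known strand setting. Some members with such an overlap of spans, MRPS22 and MRPL40 among them, had 0% of values that were not whole, while MRPS25 had 100%.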
